A study of Mus musculus with 5 samples.

Results

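The genes described are 38 genes of the cell division cycle, of 52143 genes in the deposited table, chosen by symbol and split by phase. The first 18, Mcm2 to Chaf1b, act in G1 and S phase, and the other 20, Mki67 to Nusap1, act in G2 phase and mitosis. All 38 symbols were found. Kif11 stood in 2 rows with identical values, of which 1 was kept. RNA-Seq was carried out on colon tumors of 5 mice on day 87 of a protocol that combines the mutagen azoxymethane (AOM, 10 mg/kg) with dextran sulfate sodium (DSS, 2.0%, 5 days in a cycle with 14 days of recovery), a salt that damages the colon lining. The 2 Control samples, replicates 1 and 4, were Villin1-Cre-ERT littermates, in which a tamoxifen-activated Cre recombinase is driven by the villin promoter of the gut epithelium. The 3 SIGLEC12 samples, replicates 2, 3 and 4, carried the same Cre and 1 floxed copy of human SIGLEC12 in the ROSA26 locus behind an EGFP-stop cassette that Cre removes. SIGLEC12 encodes Siglec-XII, a cell surface protein related to the sialic acid-binding Siglec lectins that does not itself recognise sialic acid. Both groups received tamoxifen for 5 days at 8 weeks of age, before AOM, so tamoxifen, Cre, AOM and DSS were common to all 5 samples. The comparison asks whether tumors that express Siglec-XII in the epithelium differ from control tumors in the RNA of these genes.

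A dividing cell copies its DNA in S phase and separates the copies in mitosis. In G1, the licensing factors Cdc6 and Cdt1 load the ring-shaped Mcm2 to Mcm7 helicase onto replication origins, and E2F transcription factors switch on the genes needed for S phase. Later, B-type cyclins with Cdk1 drive the cell into mitosis, and the anaphase-promoting complex ends it by marking cyclins and other proteins for destruction. In the colon, division is confined to the lower part of the crypt in health, and tumors keep dividing cells outside it.

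The promoters are shown first, as a description of what the genes of a phase share in sequence. Of the 38 genes, 31 had a promoter sequence, 15 of the G1/S and 16 of the G2/M genes. Each sequence ran from 250 bases before to 50 bases after the RefSeq start site on GRCm38.p6, 300 bases in all. Mcm4, Gins2, Ccne2, Ccna2, Aurkb, Tpx2 and Kif20a were among the 38 and had none. Each promoter was searched on both strands for 3 motifs. The E2F motif was TTTCCCGC, TTTGGCGC, TTTCGCGC or TTTGCCGC, the cell cycle genes homology region (CHR) was TTTGAA or TTCGAA, and the CCAAT box was CCAAT. An E2F match and a CCAAT match can overlap, as at the Mcm7 start site. Windows of 60 bases are printed 5′ to 3′ along the gene, with every match in capitals.

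The E2F motif was in 6 of 15 G1/S promoters (40%), those of Mcm3, Mcm5, Mcm6, Mcm7, Cdc6 and Cdt1. It was in 1 of 16 G2/M promoters (6.25%), that of Cdk1, and in 2.32% of all 27025 promoters of this length. The windows of Mcm5, Mcm6 and Cdc6 show the match in 2 helicase subunits and in a loading factor.
Mcm5, chr8:75109334-75109393, plus strand: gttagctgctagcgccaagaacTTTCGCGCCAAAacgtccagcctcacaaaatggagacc
Mcm6, chr1:128359719-128359778, minus strand: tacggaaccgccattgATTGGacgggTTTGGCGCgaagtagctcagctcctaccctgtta
Cdc6, chr11:98907987-98908046, plus strand: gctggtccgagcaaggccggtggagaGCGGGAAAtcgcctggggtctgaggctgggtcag

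The CHR was in 12 of 16 G2/M promoters (75%), against 3 of 15 G1/S promoters (20%) and 19.4% of all promoters. A CCAAT box was in 14 of 16 G2/M promoters (87.5%), 9 of 15 G1/S promoters (60%) and 37.9% of all. Both motifs stood together in 12 of 16 G2/M promoters (75%), 2 of 15 G1/S promoters (13.3%) and 7.7% of all. At least 2 CCAAT boxes were found in 62.5% of G2/M, 40% of G1/S and 12.2% of all promoters. The windows below belong to Ccnb2 and Ube2c, which had the highest fold changes of the G2/M genes, to Mki67, which had one of the lowest, and to Cdk1, Cdc20 and Kif11, in which the CHR and a CCAAT box lie close together.
Ccnb2, chr9:70421544-70421603, minus strand: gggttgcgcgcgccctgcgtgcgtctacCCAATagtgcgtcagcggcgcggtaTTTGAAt
Ube2c, chr2:164769873-164769932, plus strand: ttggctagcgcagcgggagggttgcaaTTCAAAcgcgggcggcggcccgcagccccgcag
Mki67, chr7:135716489-135716548, minus strand: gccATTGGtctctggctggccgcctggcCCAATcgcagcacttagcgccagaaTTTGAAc
Cdk1, chr10:69352929-69352988, minus strand: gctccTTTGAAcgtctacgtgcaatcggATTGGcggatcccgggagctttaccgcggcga
Cdc20, chr4:118437329-118437388, minus strand: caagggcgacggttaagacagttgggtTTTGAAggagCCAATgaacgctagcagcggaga
Kif11, chr19:37376336-37376395, plus strand: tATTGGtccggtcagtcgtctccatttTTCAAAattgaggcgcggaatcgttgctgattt

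The same letters were counted in wider lists of genes of the same processes. Of 54 promoters of further mitosis genes, 64.8% held the CHR and 9.26% the E2F motif. Of 47 promoters of further replication genes, 17% held the CHR and 21.3% the E2F motif. Mki67 and Ccnb2 both held the CHR and CCAAT boxes, although their fold changes lay at opposite ends of the G2/M list. Nusap1 and Birc5, 2 of the G2/M genes with the smallest unadjusted p, held none of the 3 motifs in this window, and neither did Tyms, Ccne1 or Chaf1b of the G1/S genes.

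**Figure D1:**
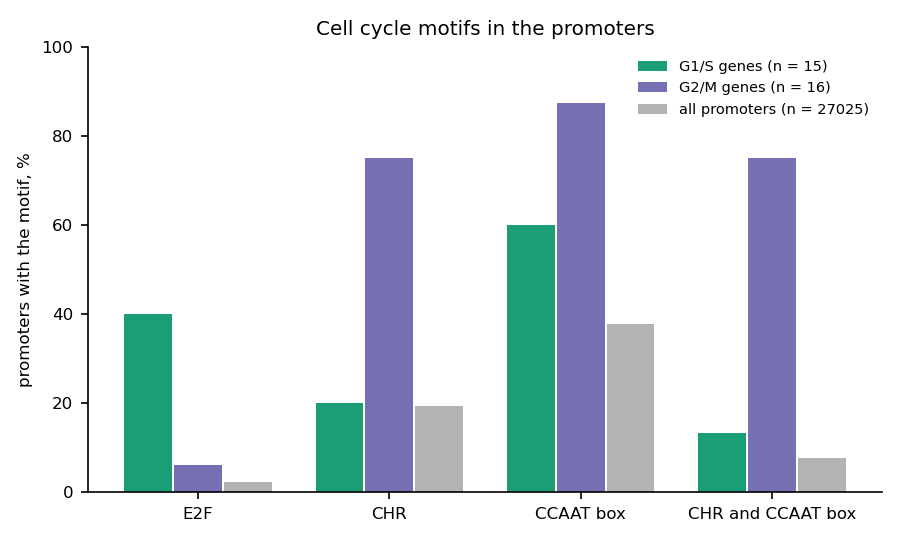
Share of 300-base promoters that hold each motif (y axis, percent) for the G1/S genes, the G2/M genes and all promoters. The E2F bar is highest for the G1/S genes (40%), and the CHR bar is highest for the G2/M genes (75%).

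Expression values are log2(TPM + 1) as deposited unless another scale is named. TPM is a gene's abundance per length relative to all RNA of its sample, so levels can be compared between genes. Read depth is unknown. Protein-coding genes took 5.70% and 6.73% of the TPM total in Control replicates 1 and 4, and 8.85%, 8.75% and 9.72% in SIGLEC12 replicates 2, 3 and 4. Most genes stood higher in SIGLEC12 as deposited, and the median log2 fold change (SIGLEC12 minus Control) of the 10338 genes with a TPM of at least 1 in at least 2 samples was 0.38. Scaling every sample to a common protein-coding total brought this median to 0.01. Changes of the cell cycle genes are read against these medians, and values after this step are called rescaled. In this test by limma with Benjamini-Hochberg adjustment, 0 of 10338 genes (0%) had an adjusted p under 0.05 with at least a 2-fold change, on either scale, and the smallest adjusted p was 0.0974 as deposited and 0.210 rescaled. At an unadjusted p under 0.05, the deposited values gave 3449 higher and 94 lower genes, and the rescaled values 460 and 652. Without Control replicate 4, 962 genes were higher and 97 lower at the adjusted threshold as deposited.

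The labels name the tissue as colon, and this was checked against marker genes. All 12 columnar epithelial markers had a TPM of at least 1 in every sample, and their mean log2(TPM + 1) was 4.44 and 5.86 in Control replicates 1 and 4, and 6.20, 6.18 and 6.72 in SIGLEC12 replicates 2, 3 and 4. All 8 squamous markers, keratins and other genes of stratified epithelium, also passed that level in every sample. Their summed TPM was 2648 and 552 in Control, and 917, 366 and 460 in SIGLEC12. Control replicate 1 stood apart, with the lowest columnar and the highest squamous level. The 5 T cell markers stayed under a TPM of 1 in all samples. The summed TPM of 6 myeloid markers was 7.85 and 3.34 in Control and 13.7, 17.7 and 4.35 in SIGLEC12. Fibroblast, endothelial, and B and plasma cell markers had a higher mean in every SIGLEC12 sample than in both Control samples, also rescaled. Many of these markers were low. Lum, Kdr, Vwf, Cd79a, Cd79b, Ms4a1 and Mzb1 stayed under a TPM of 1 in all samples. The filter on low values was passed by 5 of 6 fibroblast, 0 of 4 endothelial and 1 of 6 B and plasma cell markers. Of the last 6, 4 had a higher and 2 a lower mean in SIGLEC12 rescaled. The fibroblast mean was 1.17 and 1.25 in Control and 2.85, 1.58 and 1.98 in SIGLEC12, that of endothelium 0.28 and 0.30 against 0.98, 0.52 and 0.66, and that of B and plasma cells 0.16 and 0.31 against 1.03, 0.52 and 0.55. The smooth muscle mean overlapped between the groups. The part of these markers in the results was not tested. Because the samples are bulk tissue, fewer cells of a type and less RNA per cell cannot be told apart.

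All 38 genes had a higher mean in SIGLEC12 than in Control, as did 87.2% of all tested genes, and none passed the adjusted threshold. Their log2 fold changes ran from 0.16 for Cdc6 to 0.89 for Ccnb2, and 0 of the 38 reached 2-fold. The median was 0.52 over all 38, 0.44 over the G1/S genes and 0.66 over the G2/M genes, beside 0.38 over all tested genes. Of the 38, 37 passed the filter on low values, and 5 of these, Gins2, Ccne1, Ccne2, Bub1 and Kif11, did so with both Control samples under a TPM of 1. Cdc6 did not pass. At an unadjusted p under 0.05, 22 of 37 tested genes (59.5%) were higher, 7 of 17 (41.2%) in G1/S and 15 of 20 (75%) in G2/M, beside 33.4% of all tested genes. The 22 include Gins2 and Kif11, which entered the test through the SIGLEC12 samples alone. None of the 37 was lower at that p, beside 0.909% of all tested genes. The count of 22 was 12 without SIGLEC12 replicate 2 and 9 without SIGLEC12 replicate 4. The count over all 10338 tested genes, 3449 with all samples, was 2118 and 2362 in these 2 fits. Both counts were lowest without Control replicate 1, where the G2/M median was 0.40 and only 1 Control sample is left. Without Control replicate 4, Tyms, Ccnb2 and Ube2c passed the adjusted threshold, 3 of 37 (8.11%), beside 9.31% of all tested genes in that fit.

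The groups did not overlap for 33 of 38 genes, 32 of the 37 tested (86.5%), beside 54.1% of all tested genes with every SIGLEC12 sample above both Control samples. All 18 G1/S genes and 15 of 20 G2/M genes were among them, and the 5 with overlap were Mki67, Plk1, Bub1, Cenpe and Cenpf. The 33 include Gins2, Ccne1, Ccne2 and Kif11, which entered the test through SIGLEC12 samples alone. SIGLEC12 replicate 4 had the highest value of all 5 samples in 38 of 38 genes, and Control replicate 1 the lowest in 35 of 38. The order of the samples was thus nearly the same from gene to gene, and it followed the columnar marker level at both ends. The part of the columnar and squamous levels in the fold changes was not tested.

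**Figure D2:**
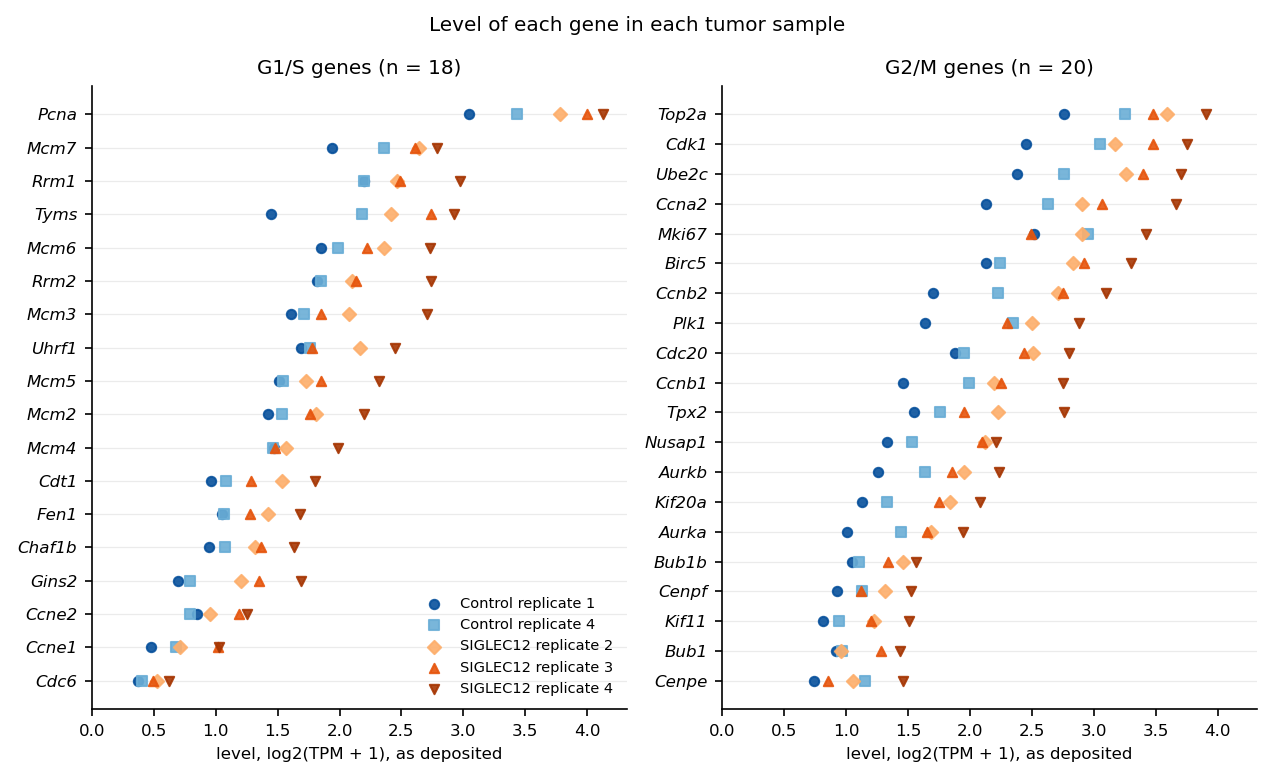
Level of each gene in each tumor sample, in log2(TPM + 1) as deposited (x axis), with genes ordered by their mean within the G1/S and G2/M lists and 1 symbol per sample. SIGLEC12 replicate 4 is the rightmost point in all 38 rows, and Control replicate 1 the leftmost in 35.

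After rescaling, the median log2 fold change was 0.14 over the 38 genes, 0.08 in G1/S and 0.21 in G2/M, beside 0.01 over all tested genes. The mean was higher in SIGLEC12 for 31 of 38 genes, beside 51.1% of all tested genes, with 15 of 18 in G1/S and 16 of 20 in G2/M. It was lower for Mcm4, Rrm1, Uhrf1, Mki67, Bub1, Cenpe and Cenpf. An unadjusted p under 0.05 remained for 2 of 37 genes (5.41%), the G2/M genes Ccnb2 and Nusap1, beside 4.45% of all tested genes, and 0 of 37 were lower, beside 6.31%. The share of the 38 genes at that p was close to the background on this scale. The groups did not overlap for 9 of 37 tested genes (24.3%), beside 15.6% of all. They were Gins2 and Chaf1b in G1/S and Ccnb2, Cdc20, Birc5, Kif11, Kif20a, Ube2c and Nusap1 in G2/M, which is 11.8% of the tested G1/S and 35% of the G2/M genes. Of these 9, Gins2 and Kif11 entered the test through the SIGLEC12 samples alone. SIGLEC12 replicate 4 remained the highest sample in 30 of 38 genes.

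**Figure D3:**
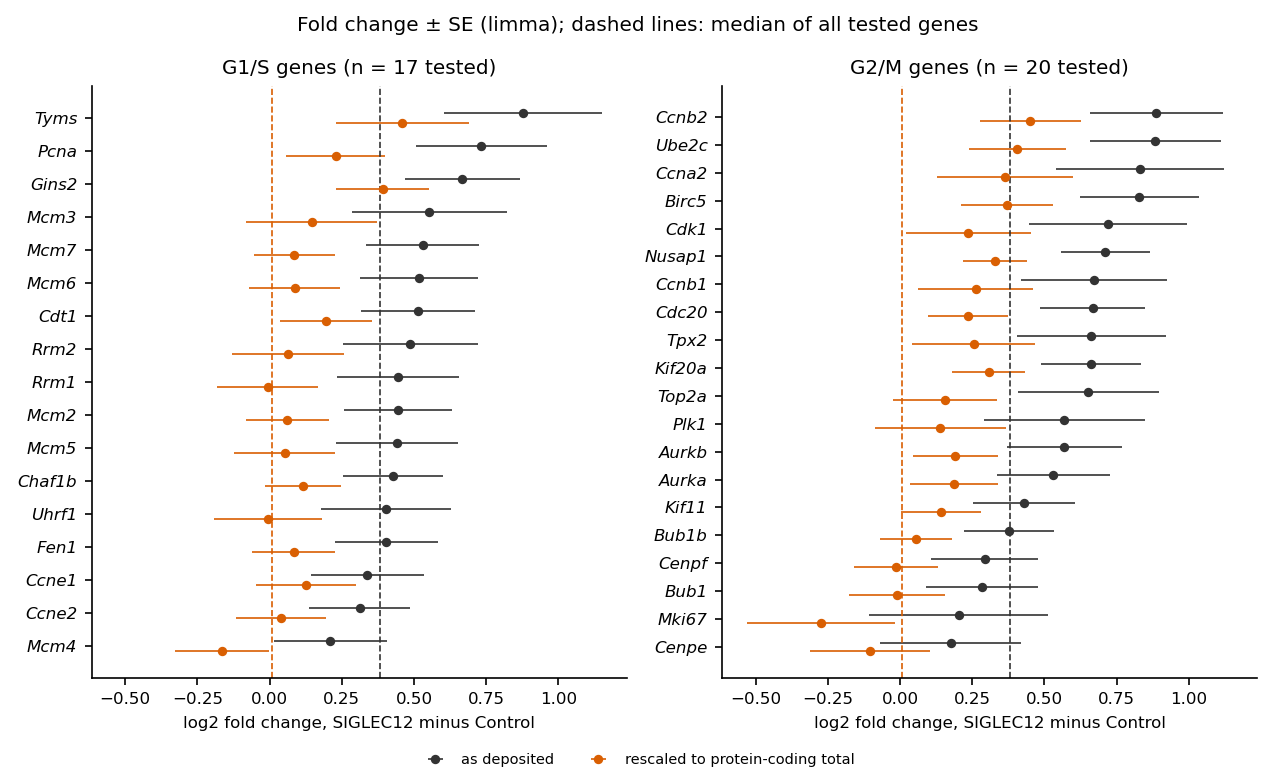
Log2 fold change, SIGLEC12 minus Control, with its standard error from limma (x axis) for each tested gene, as deposited and rescaled to the protein-coding total. Dashed lines mark the medians of all tested genes, 0.38 as deposited and 0.01 rescaled, and most G1/S genes lie near them.

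The licensing and helicase genes come first in S phase. Mcm2 to Mcm7 encode the 6 subunits of the helicase that opens the DNA double strand. Mcm7, the highest subunit in each sample, had levels of 1.94 and 2.36 in Control and 2.64, 2.61 and 2.78 in SIGLEC12. This is a log2 fold change of 0.53 ± 0.20 (SE), with an unadjusted p of 0.032 and an adjusted p of 0.122 by limma, and 0.09 ± 0.14 rescaled. Mcm6 had levels of 1.85 and 1.99 in Control and 2.36, 2.22 and 2.73 in SIGLEC12, which gives a log2 fold change of 0.52 ± 0.20 (SE). Mcm3 stood at 1.60 and 1.71 in Control, and at 2.08, 1.85 and 2.70 in SIGLEC12. In each of these 3 genes SIGLEC12 replicate 4 was the highest sample and no SIGLEC12 sample fell below a Control sample.

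Mcm2 had levels of 1.42 and 1.54 in Control and 1.81, 1.76 and 2.19 in SIGLEC12. Mcm5 had levels of 1.51 and 1.55 in Control and 1.73, 1.85 and 2.32 in SIGLEC12. Mcm4 had the lowest fold change of the tested G1/S genes, at 1.47 and 1.46 in Control and at 1.57, 1.48 and 1.98 in SIGLEC12. Its log2 fold change of 0.21 ± 0.20 (SE) lay below the median of all genes and was -0.16 ± 0.16 (SE) rescaled, so that its direction depended on the scale. The 6 subunits of a complex with equal parts were not at equal RNA levels. The TPM of the highest subunit was 1.68 and 2.35 times that of the lowest in Control, and 2.66, 2.85 and 1.99 times in SIGLEC12, ranges that overlap. The lowest subunit was Mcm2 in Control replicate 1 and Mcm4 in the other samples.

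Cdc6, which loads the helicase, was the lowest of the 38 genes, at 0.38 and 0.40 in Control and at 0.53, 0.49 and 0.62 in SIGLEC12. This is a log2 fold change of 0.16 as deposited and 0.01 rescaled. Cdt1, its partner in loading, had 0.96 and 1.09 in Control and 1.54, 1.28 and 1.80 in SIGLEC12, which gives a log2 fold change of 0.51 ± 0.20 (SE). The TPM ratio of Cdt1 to its inhibitor Gmnn (geminin) was 0.71 and 0.79 in Control and 0.84, 0.58 and 0.98 in SIGLEC12, and the groups overlapped. Gins2, a subunit of the complex that activates the loaded helicase, had the smallest unadjusted p of the G1/S genes, but it entered the test through the SIGLEC12 samples alone. Its levels were 0.70 and 0.80 in Control and 1.21, 1.35 and 1.69 in SIGLEC12, which gives a log2 fold change of 0.67 ± 0.20 (SE, unadjusted p = 0.013, adjusted p = 0.1003). All 3 SIGLEC12 samples were above both Control samples, also rescaled (0.90 and 0.90 against 1.12, 1.27 and 1.50).

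Genes of nucleotide supply and the replication fork followed the same order of samples. Pcna, the sliding clamp that holds DNA polymerases on the template, was the most abundant of the 38 genes, with a mean TPM of 12.3 over the 5 samples. Its TPM was 7.24 and 9.78 in Control and 12.8, 15.0 and 16.5 in SIGLEC12, with a log2 fold change of 0.73 ± 0.23 (SE, unadjusted p = 0.016, adjusted p = 0.101). Rescaled, its log2(TPM + 1) was 3.47 and 3.65 in Control and 3.64, 3.87 and 3.86 in SIGLEC12, and the groups overlapped. Tyms, thymidylate synthase, had the highest fold change of the G1/S genes. It had 1.45 and 2.18 in Control and 2.42, 2.74 and 2.92 in SIGLEC12, which gives a log2 fold change of 0.88 ± 0.27 (SE, unadjusted p = 0.017, adjusted p = 0.101). The difference between the 2 Control samples was larger than that between Control replicate 4 and SIGLEC12 replicate 2.

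Rrm1 and Rrm2 encode the large and the small subunit of ribonucleotide reductase, which makes deoxynucleotides. Rrm1 had levels of 2.19 and 2.20 in Control and 2.46, 2.49 and 2.97 in SIGLEC12. Rrm2 had levels of 1.82 and 1.85 in Control and 2.10, 2.13 and 2.73 in SIGLEC12. In both genes the Control samples and SIGLEC12 replicates 2 and 3 were each close together, and SIGLEC12 replicate 4 stood above them. The TPM ratio of Rrm1 to Rrm2 was 1.41 and 1.37 in Control and 1.37, 1.36 and 1.21 in SIGLEC12. Their log2 fold changes were 0.44 ± 0.21 and 0.49 ± 0.23 (SE), and -0.01 ± 0.17 and 0.06 ± 0.19 rescaled.

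The remaining G1/S genes had fold changes near or below the median of all tested genes. Fen1, the flap endonuclease of lagging-strand synthesis, had a log2 fold change of 0.40 ± 0.18, and Chaf1b, a subunit of the chromatin assembly factor behind the fork, one of 0.43 ± 0.17 (SE). Uhrf1, which recruits the maintenance methyltransferase to new DNA, had 0.40 ± 0.23. Ccne1 and Ccne2, the E-type cyclins that start S phase, had 0.34 ± 0.20 and 0.31 ± 0.18, both below that median.

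In the G2/M list, the 4 genes with the smallest unadjusted p were Nusap1, Birc5, Ccnb2 and Ube2c. Nusap1, which binds and bundles spindle microtubules, had levels of 1.33 and 1.53 in Control and 2.12, 2.10 and 2.21 in SIGLEC12. This is a log2 fold change of 0.71 ± 0.15 (SE, unadjusted p = 0.0030, adjusted p = 0.0974) as deposited and 0.33 ± 0.11 (SE, unadjusted p = 0.027, adjusted p = 0.457) rescaled. The 3 SIGLEC12 samples lay within 0.11 of each other and above both Control samples. Birc5, survivin, which directs Aurora B kinase to centromeres, had 2.13 and 2.25 in Control and 2.83, 2.92 and 3.30 in SIGLEC12, which gives a log2 fold change of 0.83 ± 0.21 (SE, unadjusted p = 0.0060).

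Ccnb2, a B-type cyclin, had the highest fold change of the 38 genes. Its levels were 1.70 and 2.23 in Control and 2.71, 2.75 and 3.10 in SIGLEC12, which gives a log2 fold change of 0.89 ± 0.23 (SE, unadjusted p = 0.0074, adjusted p = 0.0974). Rescaled, it had 2.05 and 2.42 in Control and 2.58, 2.64 and 2.84 in SIGLEC12, 0.45 ± 0.17 (SE, unadjusted p = 0.042), still without overlap. Ube2c, the ubiquitin-conjugating enzyme of the anaphase-promoting complex, had 2.38 and 2.76 in Control and 3.26, 3.40 and 3.70 in SIGLEC12. This is a log2 fold change of 0.88 ± 0.23 (SE, unadjusted p = 0.0069), and 0.41 ± 0.17 rescaled, where the groups also did not overlap.

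Ccnb1 and Cdk1 form the kinase that starts mitosis. Ccnb1 had levels of 1.46 and 1.99 in Control and 2.19, 2.25 and 2.75 in SIGLEC12, which gives a log2 fold change of 0.67 ± 0.25 (SE). Cdk1 had levels of 2.45 and 3.05 in Control and 3.17, 3.48 and 3.76 in SIGLEC12, 0.72 ± 0.27 (SE). Control replicate 4 was closer to SIGLEC12 replicate 2 than to the other Control sample in both genes. Their TPM ratio, Cdk1 to Ccnb1, was 2.56 and 2.44 in Control and 2.25, 2.70 and 2.18 in SIGLEC12, with overlap. The ratio of Ccnb2 to Ccnb1 was 1.29 and 1.23 in Control and 1.56, 1.52 and 1.32 in SIGLEC12, without overlap. The longest annotated transcript is 1531 bases for Ccnb2 and 2489 for Ccnb1. With the length trend removed, as described below, the log2 fold changes of Ccnb2 and Ccnb1 were 0.30 and 0.20. The part of length in this ratio was not tested.

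Mki67, whose protein Ki-67 coats mitotic chromosomes and is the usual stain for dividing cells, was among the 5 genes with overlap. It had levels of 2.52 and 2.96 in Control and 2.90, 2.49 and 3.43 in SIGLEC12. The lowest of the 5 values was in SIGLEC12 replicate 3, the highest in SIGLEC12 replicate 4, and the groups overlapped. The log2 fold change was 0.20 ± 0.31 (SE, unadjusted p = 0.53) as deposited and -0.27 ± 0.26 (SE, unadjusted p = 0.33) rescaled, so its direction changed with the scale. It also changed without Control replicate 1 (-0.0153) and without SIGLEC12 replicate 4 (-0.0393). The TPM ratio of Mki67 to Pcna was 0.65 and 0.69 in Control and 0.51, 0.31 and 0.59 in SIGLEC12, and that of Mki67 to Birc5 was 1.40 and 1.81 in Control and 1.06, 0.71 and 1.10 in SIGLEC12. Both ratios were lower in every SIGLEC12 sample than in either Control sample. The longest annotated transcript is 10061 bases for Mki67, 1518 for Pcna and 3334 for Birc5. With the trend on transcript length removed, as described below, their log2 fold changes were -0.05, 0.07 and 0.37. The part of length in these ratios was not tested.

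Cenpe, the kinetochore motor that aligns chromosomes, had the lowest fold change of the G2/M genes, at 0.74 and 1.16 in Control and at 1.06, 0.85 and 1.46 in SIGLEC12. This is a log2 fold change of 0.18 ± 0.24 (SE, unadjusted p = 0.50) and -0.10 ± 0.21 rescaled, and it was -0.0335 without Control replicate 1. Cenpf, another large kinetochore protein, had 0.29 ± 0.19 (SE). Top2a, the topoisomerase that untangles sister chromatids, was second in abundance of the 38 genes, with a mean TPM of 9.89 and a log2 fold change of 0.65 ± 0.24 (SE). The mitotic kinases Plk1, Aurka and Aurkb had 0.57 ± 0.28, 0.53 ± 0.20 and 0.57 ± 0.20, and the checkpoint kinases Bub1 and Bub1b had 0.28 ± 0.19 and 0.38 ± 0.16. Ccna2, cyclin A, had 0.83 ± 0.29, and Cdc20, which activates the anaphase-promoting complex, had 0.67 ± 0.18. The spindle proteins Tpx2, Kif11 and Kif20a had 0.66 ± 0.26, 0.43 ± 0.18 and 0.66 ± 0.17.

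Of the 4 lowest G2/M fold changes, 3 belonged to the longest of the 38 genes. The longest annotated transcript was 7910 bases for Cenpe, 10061 for Mki67 and 11130 for Cenpf, beside a median of 3352.5 over the 38 genes. Across the G2/M genes, the Spearman correlation of the log2 fold change with this length was -0.53 (n = 20), and across the G1/S genes it was -0.15 (n = 18). Rescaled, it was -0.56 and -0.47. Across all 9222 tested protein-coding genes it was -0.42 on both scales. These genes share the same 5 libraries, and the values are descriptions. With the trend of each rescaled sample on transcript length removed, the log2 fold change was -0.05 for Mki67, 0.07 for Cenpe and 0.23 for Cenpf. For the shorter Ccnb2 and Ube2c it was 0.30 and 0.32, beside 0.45 and 0.41 rescaled. The medians were then 0.06 in G1/S and 0.22 in G2/M, beside -0.02 over all tested genes, and 3 of 37 genes (8.11%) were higher at an unadjusted p under 0.05, beside 3.14% of all. The 3 were Kif20a, Nusap1 and Gins2, and Gins2 entered the test through the SIGLEC12 samples alone.

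**Figure D4:**
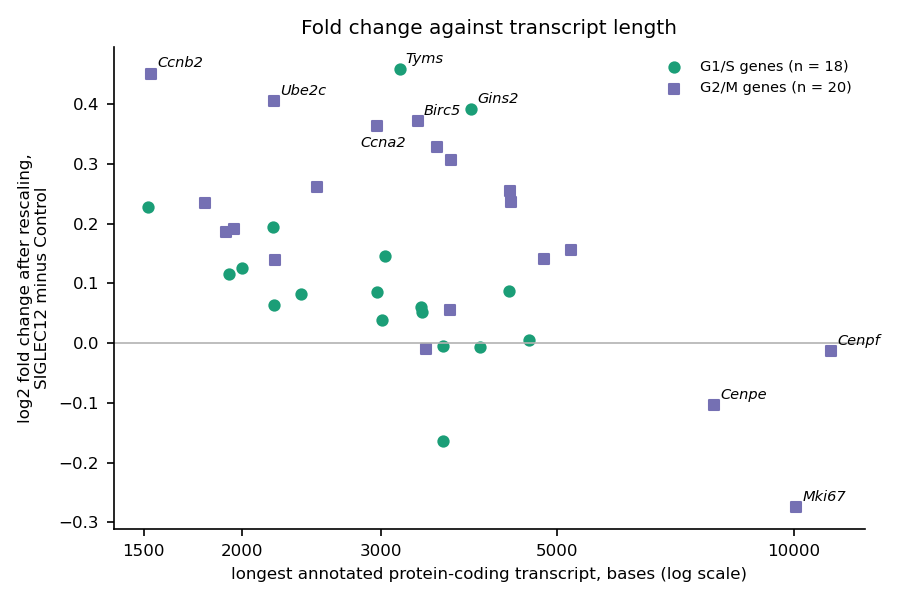
Rescaled log2 fold change, SIGLEC12 minus Control (y axis), against the length of the longest annotated protein-coding transcript in bases (x axis, log scale), with 1 point for each of the 38 genes. Mki67, Cenpe and Cenpf are the 3 longest and lie at -0.27, -0.10 and -0.01.

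The phases were compared within each sample. The mean log2(TPM + 1) of the 18 G1/S genes was 1.41 and 1.55 in Control and 1.82, 1.83 and 2.20 in SIGLEC12. The mean of the 20 G2/M genes was 1.59 and 1.92 in Control and 2.22, 2.18 and 2.60 in SIGLEC12. The G2/M mean minus the G1/S mean was 0.18 and 0.37 in Control and 0.40, 0.36 and 0.40 in SIGLEC12. Control replicate 4 lay among the SIGLEC12 samples and Control replicate 1 lay below them. The group difference was 0.11 with all samples, 0.02 without Control replicate 1 and 0.20 without Control replicate 4. It was 0.08 rescaled, 0.06 by quantile scaling, and 0.00125 over the genes with a TPM of at least 5 in at least 2 samples. That last value covers only 10 genes, with Mcm7, Pcna and Tyms as the only G1/S genes. It is therefore not a value of the full lists.

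The cell cycle levels were also set beside the columnar epithelium. The mean of the 38 genes minus the mean of the columnar markers was -2.93 and -4.12 in Control and -4.17, -4.17 and -4.31 in SIGLEC12. Against this reference, the cell cycle genes stood lower in every SIGLEC12 sample than in either Control sample, with a group difference of -0.69 beside a Control SD of 0.84. Rescaled, the values were -3.08 and -4.19 in Control and -4.12, -4.13 and -4.25 in SIGLEC12, and the groups overlapped. The mean of the squamous markers was 6.75 and 5.40 in Control and 5.77, 4.82 and 4.83 in SIGLEC12, highest in the Control sample with the lowest cell cycle levels. Their part in the result was not tested.

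**Figure D5:**
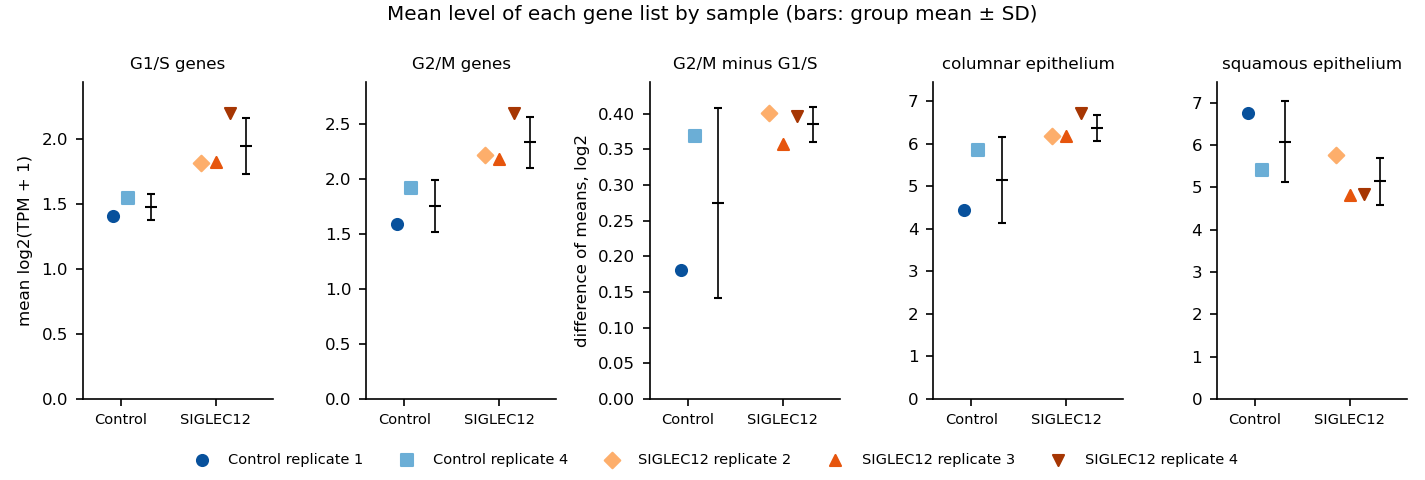
Mean log2(TPM + 1) of the G1/S genes, the G2/M genes and 2 marker lists, and the difference between the 2 phase means, by sample (points) with the group mean ± SD (bars, n = 2 and n = 3). Control replicate 1 is lowest for both phases (1.41 and 1.59) and for the columnar markers (4.44), and highest for the squamous markers (6.75).

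Other genes of the pathway were taken from 4 lists. In the replication machinery (56 genes, 41 tested), 23 (56.1%) were higher and 0 lower at an unadjusted p under 0.05, beside 33.4% higher of all tested genes, with a median log2 fold change of 0.43 over the list. Rescaled, 4 of the 41 (9.76%) were higher, beside 4.45% of all tested genes, and 2 were lower, beside 6.31%. Pold4, a small subunit of DNA polymerase delta, had 0.96 and 1.14 in Control and 1.90, 2.04 and 1.82 in SIGLEC12, which gives a log2 fold change of 0.87 ± 0.16 (SE, unadjusted p = 0.0012). Gins4, which belongs to the same complex as Gins2, had 0.82 ± 0.16, and Rpa3, a subunit of the single-strand binding protein, had 0.89 ± 0.21. Both Pold4 and Gins4 were lower in SIGLEC12 replicate 4 than in the other 2 SIGLEC12 samples, unlike the 38 genes.

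In the mitosis machinery (67 genes, 53 tested), 20 (37.7%) were higher at that p, close to the 33.4% of all tested genes, and 0 were lower, with a median of 0.38, as over all tested genes. Rescaled, 2 of the 53 (3.77%) were higher and 1 was lower, beside 4.45% and 6.31% of all tested genes. Mad2l1, the spindle checkpoint protein that holds back Cdc20, had 1.56 and 1.91 in Control and 2.50, 2.79 and 2.95 in SIGLEC12, which gives a log2 fold change of 1.01 ± 0.21 (SE, unadjusted p = 0.0025, adjusted p = 0.0974). It was the only gene of the 4 lists past 2-fold as deposited. Anapc11, a subunit of the anaphase-promoting complex, had 0.81 ± 0.17, and Cks2, which binds Cdk1, had 0.79 ± 0.21.

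In the list of G1 and E2F control genes (27 genes, 22 tested), 8 (36.4%) were higher, beside 33.4% of all tested genes, and 1, Cdk6, was lower at that p, with a median of 0.35. Rescaled, 0 of the 22 were higher and 2 were lower, beside 4.45% and 6.31% of all tested genes. Tfdp2, a partner of E2F proteins, had a log2 fold change of 0.73 ± 0.21, Cks1b had 0.79 ± 0.23, and Cdk4, the G1 kinase that binds D-type cyclins, had 0.77 ± 0.23 (SE). All 13 genes that restrain the cycle had a higher mean in SIGLEC12 as deposited, beside 87.2% of all tested genes. Rescaled, 10 of 13 had, beside 51.1%. Of the 13, 11 were tested, and 4 of these (36.4%) were higher and 0 lower at that p, a share also near the background. The median was 0.53. Rescaled, 0 of the 11 were higher and 0 lower, beside the same 4.45% and 6.31%. Cdkn1b, the inhibitor p27, had 1.97 and 2.19 in Control and 2.95, 3.02 and 2.67 in SIGLEC12, 0.80 ± 0.19 (SE). Ccng1 had 0.60 ± 0.19 and Cdkn2c, an inhibitor of Cdk4, had 0.49 ± 0.18. Cdkn2c, which is among the 4, had both Control samples under a TPM of 1 (0.47 and 0.90). It entered the test through the SIGLEC12 samples alone. Rescaled, the medians of the replication, mitosis, G1 and brake lists were 0.09, 0.08, 0.02 and 0.15, beside 0.08 and 0.21 for the G1/S and G2/M genes.

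Some of the 38 loci are shared with other genes. In GENCODE M21, 10 of the 38 overlap another protein-coding gene, among them Mcm7 with Ap4m1 and Cops6, Gins2 with Gse1, Nusap1 with Oip5, Cdc20 with Elovl1, Ube2c with Tnnc2 and Ccna2 with Exosc9. The overlapping gene is on the opposite strand in these pairs, whereas Gm20388 overlaps Cdt1 on the same strand. Overlap was taken over whole gene spans, introns included. Whether strand was used in counting is not stated. Without it, reads from a stretch shared by opposite strands cannot be told apart, and strand does not separate Cdt1 from Gm20388.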

How the data were processed

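RNA of 5 colon tumor samples, 2 Control and 3 SIGLEC12, was analysed, with groups taken from the sample titles. The authors deposited a table of log2 values. Antilogs minus 1 added up to 999999 to 1000001 in each column, so the values were read as log2(TPM + 1). Per the submitters' processing notes, kallisto 0.45.0 and GRCm38 were used. The study's methods also name a human reference, and technical replicate libraries whose averaging is not stated. The labels name a total RNA kit and the methods an mRNA kit. TPM holds no depth, so counting intervals are not given, and no count model was used. Value columns without a sample numbered 0.

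Genes with TPM at least 1 in at least 2 samples entered limma 3.58.1 under R 4.3.3 (lmFit, eBayes with trend, 2-sided), with Benjamini-Hochberg adjustment and no covariate. A call needed an adjusted p under 0.05 and a 2-fold change. The pseudocount of 1 understates changes of low genes. Fold changes are SIGLEC12 minus Control with the SE of the fit. The p-values measure the spread between these samples. Biotypes, lengths and coordinates came from GENCODE M21 (98.5% of identifiers matched), promoters from RefSeq. The fit was tested on simulated data. Alternatives were another pseudocount (0.1), no filter or TPM at least 5, rescaling to the protein-coding total, median-ratio and quantile scaling, removal of the length trend, and leaving out each replicate.

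The genes and lists were chosen with earlier results of these data known. Values in every sample were given for the Mcm subunits, Rrm1, Rrm2, Ccnb1, Cdk1, Mki67 and, in each phase, the 4 genes with the smallest p and the 2 with the lowest fold change. From each further list the 3 genes with the smallest p are named, most with the fold change alone. Cdt1 was given in full outside this rule, after its values were seen. The SIGLEC12 transgene was not analysed here.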

Additional observations from a re-analysis of the deposited data

How the results depend on the processing

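With 2 and 3 samples and TPM without depth, small differences could not be resolved. No paired analysis was possible because number 4 alone occurs in both groups. Leaving out a Control sample leaves 1, which is assumed to vary like the others. The count of cell cycle genes higher at an unadjusted p under 0.05 was 22 as reported. It was 9 at TPM at least 5, where 10 were tested. The share of all genes at that filter is not given here, so these 9 have no background. The count was 2 rescaled to the protein-coding total, 2 by median ratio, 3 by quantiles and 3 with the length trend removed. It was 12, 17 and 9 without SIGLEC12 replicates 2, 3 and 4. The count over all genes, 3449 higher and 94 lower, was 1732 and 33 at TPM at least 5, 460 and 652 rescaled, 488 and 679 by median ratio, 610 and 527 by quantiles, 325 and 818 with the length trend removed, and 1438 to 4416 and 75 to 278 without 1 replicate, and 575 were lower with no filter. Without Control replicate 4, 962 genes were higher and 97 lower at the adjusted threshold, and without another replicate 0 or 1 and 0. Tyms (1.25), Ccnb2 (1.15) and Ube2c (1.07) then passed it, with adjusted p of 0.0427, 0.0432 and 0.0488 by limma.

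The median log2 fold change of the G1/S genes, 0.44, was 0.64 with a pseudocount of 0.1, 0.73 at TPM at least 5, 0.0840 rescaled, 0.0756 by median ratio, 0.12 by quantiles, 0.0591 with the length trend removed and 0.30 to 0.54 without 1 replicate. That of the G2/M genes, 0.66, was 0.21, 0.20, 0.23 and 0.22 under the 4 scalings in that order and 0.40 to 0.77 without 1 replicate. The phase difference, 0.11, was 0.00125 at TPM at least 5 and 0.0158 to 0.20 without 1 replicate. At TPM at least 5, the only G1/S genes tested were Mcm7, Pcna and Tyms. The G1/S median and the phase difference at that filter thus cover a changed set of genes. In an alternative added after seeing the data, values were rescaled with 1 replicate left out. The count of cell cycle genes higher at an unadjusted p under 0.05 was then 1, 0 and 0 without SIGLEC12 replicates 2, 3 and 4. The share of all genes is not given for these fits, so this count has no background. The phase difference was -0.0172 to 0.17 in this alternative. Without Control replicates 1 and 4 and SIGLEC12 replicates 2, 3 and 4 in turn, the G1/S median was 0.11, 0.0525, 0.13, 0.13 and -0.00409, and the G2/M median 0.0790, 0.33, 0.23, 0.247 and 0.12. The cause of these shifts was not tested.

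Directions turned for 7 genes rescaled and by median ratio: Mcm4 (-0.16, -0.17), Rrm1 (-0.00706, -0.0167), Uhrf1 (-0.00506, -0.0145), Mki67 (-0.27, -0.28), Bub1 (-0.00969, -0.0152), Cenpe (-0.10, -0.10) and Cenpf (-0.0132, -0.0190). By quantiles, Mcm4 (-0.12), Mki67 (-0.26) and Cenpe (-0.10) turned, and with the length trend removed Mcm4 (-0.15), Rrm2 (-0.0217), Mki67 (-0.0534) and Bub1 (-0.00269). Without 1 replicate, Mki67 ran from -0.0393 to 0.43 and Cenpe from -0.0335 to 0.39. Mki67 turned without Control replicate 1 (-0.0153) or SIGLEC12 replicate 4, and Cenpe without Control replicate 1. The other tested genes kept their direction under each of these alternatives, with 10 of the 38 genes tested at TPM at least 5. Rescaled without 1 replicate, the number of the 37 tested genes that were lower in SIGLEC12 was 6 and 8 without Control replicates 1 and 4, and 5, 4 and 12 without SIGLEC12 replicates 2, 3 and 4. The share of all tested genes that were lower is not given for these fits. These numbers thus have no background.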
